A study of Mus musculus with 8 samples.

Results

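Gata4, Gata6, Sox17, Sox7, Hnf4a, Dab2, Pdgfra, Cubn, Lrp2 and Amn are 10 genes used as factors and markers of the primitive endoderm. They were taken by symbol: every probe set (a group of short probes that together report 1 transcript) whose only gene symbol in the platform annotation was one of these names was kept. This gave 26 probe sets of 45101, and 10 genes of 18194 named on the array. The RNA came from mouse embryonic stem cells (strain 129X1 x 129S1) in standard stem cell culture, and 8 expression arrays were hybridised with biotin-labelled total RNA. Cells with a short hairpin RNA against Top1 (shTop1) or against p53 (shp53) met mock cells at a ratio of 1:4. In the cocultures both kinds of cell grew together in 1 dish for 4 days. In the controls, called mixes here, each kind grew alone for 4 days and the RNA was pooled at the same 1:4. The labels do not give the share of mock cells in the cocultures at harvest. This makes 4 groups, a mix and a coculture for each hairpin, with 2 arrays each that the labels name as biological replicates. Nothing in the labels tells whether replicates came from separate cultures or whether mixes shared mock RNA, so p-values measure the spread between these arrays. The aim stated for the design was to separate what happens when cells live together from what each knockdown does by itself.

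The primitive endoderm is the layer that forms beside the epiblast inside the blastocyst and gives rise to the visceral and parietal endoderm of the yolk sacs. FGF4 from epiblast cells acts through FGF receptors and ERK to favour this fate, and the transcription factors GATA6, SOX17, GATA4 and SOX7 act in it in turn. Its surface carries the PDGF receptor alpha and an endocytic machine: cubilin and amnionless form one receptor, megalin (encoded by Lrp2) is its partner, and the adaptor Dab2 links the cargo receptors to clathrin. Stem cell cultures are known to hold some cells that express these genes beside the pluripotent cells.

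Values are signals after quantile normalization, which gives all arrays the same distribution, and differences are on the scale log2(signal + 16), which understates changes of dim genes. A signal cannot be set against that of another gene, since probes differ in brightness. Mean deposited signal per array was 812 to 896. The array shTop1 coculture replicate 1 stood apart on the second principal component (32.6, against -15.5 to 3.63 on the others). On the first component shTop1 coculture replicate 2 was the highest (26.1, against -21.1 to 12.5 on the others). There the cocultures (-2.94 to 26.1) lay above the mixes (-21.1 to -5.14). Top1 had signals of 5110 and 5316 in the shTop1 mixes, 5281 and 5283 in the shTop1 cocultures, 5456 and 5682 in the shp53 mixes, and 5572 and 5886 in the shp53 cocultures. All 4 shTop1 arrays were thus below all 4 shp53 arrays, by -0.11 on the log2 scale (exact permutation p = 0.0286, the smallest that 4 against 4 allows). Knockdown cells were set at 1 part to 4 parts of mock cells, so this difference does not give the strength of the knockdown. The p53 gene was not analysed here. The stem cell markers Pou5f1, Nanog and Sox2 lay at the 98.8th, 97.9th and 98.8th percentile of all probe sets. Of 9 fibroblast markers, 5 (Col3a1, Dcn, Lum, Postn and Twist2) were below the filter on low signal, set at the 30th percentile of all probe sets or a signal of 22.1. In these bulk samples, fewer cells of a type and less RNA per cell cannot be told apart.

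All 10 genes passed the filter on low signal through their brightest probe set, between the 65.2nd percentile (Hnf4a) and the 96.5th (Dab2). In the shp53 cocultures the 5 receptor and adaptor genes, Dab2, Pdgfra, Cubn, Lrp2 and Amn, had their highest signals: both arrays lay above the other 6 for each of these genes, 1.08 to 1.22 times the shp53 mixes. None of the 5 transcription factor genes showed that order. The grouping by role was made after the values were seen. Over all 14267 genes tested, 3.98% had both shp53 cocultures above the other 6 arrays and 2.87% had both below. With each array centred on its median in place of quantile normalization, the order held for 3 of the 5, Pdgfra, Cubn and Lrp2 (2.43% of all genes). In limma's test none of the 10 genes passed in coculture against mix, averaged over both knockdowns or with either one, and neither did any other gene (0% called, Benjamini-Hochberg adjusted p under 0.05). The values below therefore describe these arrays, with their intervals.

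**Figure D1:**
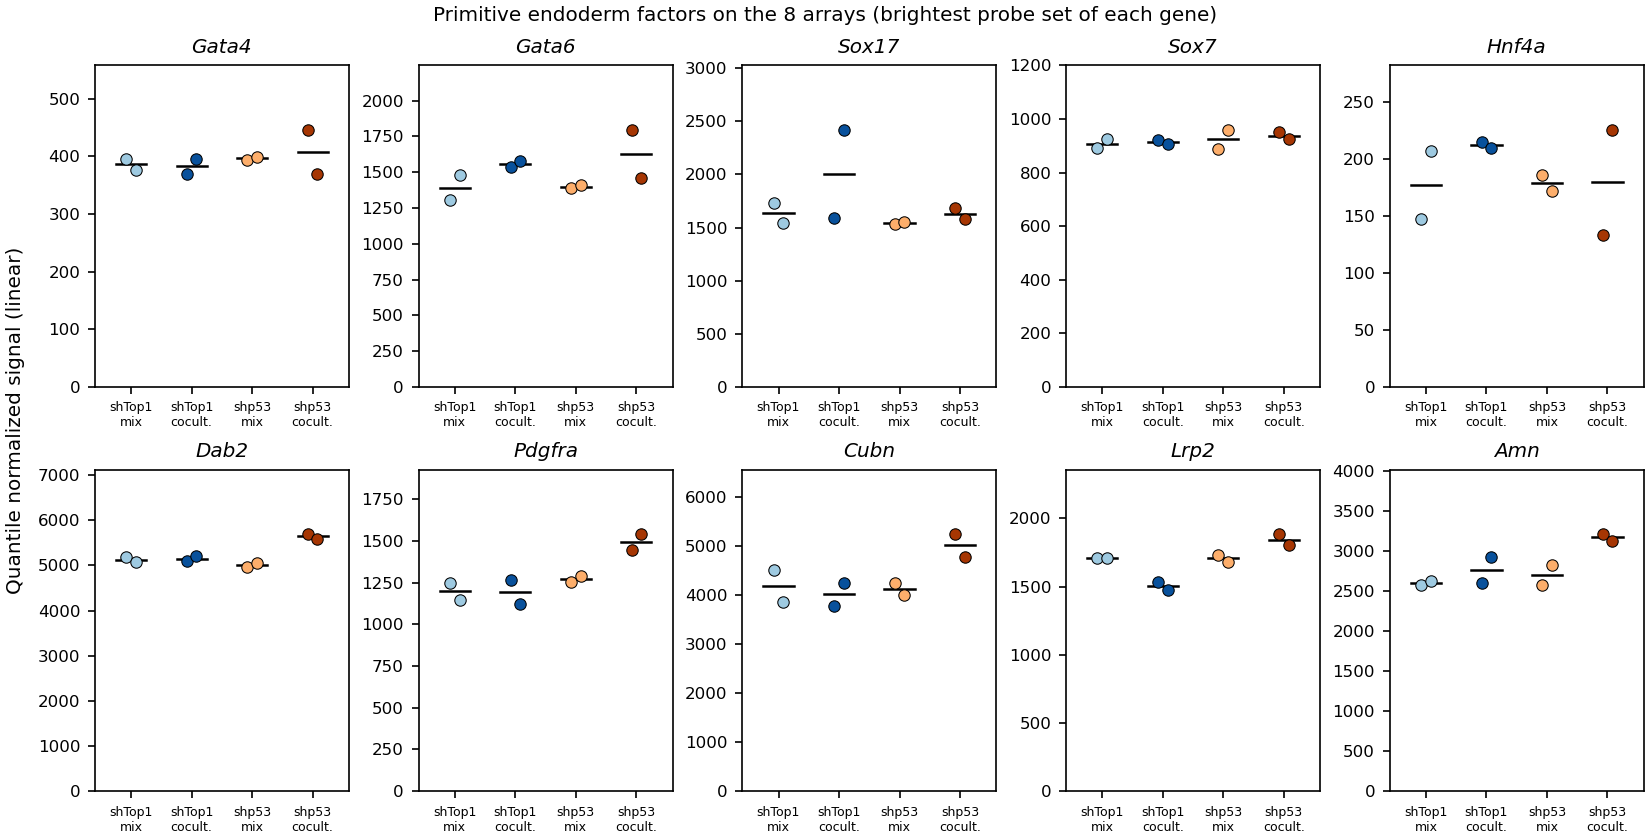
Quantile normalized signal (linear axis from 0) of the brightest probe set of each gene on the 8 arrays, by group; points are arrays and the line is the mean of 2. For Dab2, Pdgfra, Cubn, Lrp2 and Amn both shp53 coculture points lie above all others, while the points of Gata4 and Sox7 overlap between groups.

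Gata6, a zinc finger factor that starts the primitive endoderm program, had signals of 1302 and 1482 in the shTop1 mixes, 1539 and 1575 in the shTop1 cocultures, 1389 and 1410 in the shp53 mixes, and 1797 and 1458 in the shp53 cocultures. In each knockdown both cocultures lay above both mixes, but the lowest coculture (1458) lay below the highest mix (1482). Averaged over both knockdowns the log2 difference was 0.19 ± 0.10 (SE), with a 95% interval of -0.05 to 0.42 (limma adjusted p = 0.493). It was the largest average difference of the 10. Gata4, which acts after Gata6, had signals of 396 and 377 in the shTop1 mixes, 370.3 and 395 in the shTop1 cocultures, 394 and 399 in the shp53 mixes, and 447 and 369.8 in the shp53 cocultures. The groups overlapped, with the highest and the lowest array of Gata4 both in the shp53 coculture group. Its average difference was 0.01 ± 0.09 (SE), with an interval of -0.20 to 0.22.

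Sox17 and Sox7 encode related HMG box factors of the SoxF family. Sox17 had signals of 1733 and 1545 in the shTop1 mixes, 1587 and 2422 in the shTop1 cocultures, 1538 and 1556 in the shp53 mixes, and 1683 and 1577 in the shp53 cocultures. One array, shTop1 coculture replicate 2, stood far above the other 7. With it the shTop1 difference was 0.26 ± 0.20 (SE), and without it -0.04. The brightest Sox17 probe set has the suffix x, given to probe sets whose probes may also bind other transcripts. The other Sox17 probe set, 1421657_a_at, had signals of 736 and 713 in the shTop1 mixes, 739 and 816 in the shTop1 cocultures, 657 and 720.4 in the shp53 mixes, and 864 and 739 in the shp53 cocultures. Here all 4 cocultures lay above all 4 mixes, though the nearest values (736 and 739) almost touch. The difference was 0.15 (exact permutation p = 0.0286, the smallest possible, and limma adjusted p over probe sets = 0.58). It was the only member probe set of 25 tested with that order, and 4.61% of all 26118 probe sets tested had it; 0 of the 25 had all cocultures below all mixes, against 3.46%. Sox7 was the steadiest gene: its 8 signals ran from 889 to 961, a ratio of 1.08 between the highest and the lowest array. Its average coculture difference was 0.02 ± 0.07 (SE), with an interval of -0.15 to 0.18.

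Hnf4a, a nuclear receptor of the visceral endoderm, was the dimmest relative to all probe sets. Its signals were 147 and 207 in the shTop1 mixes, 215 and 209 in the shTop1 cocultures, 186 and 172 in the shp53 mixes, and 134 and 226 in the shp53 cocultures. The 2 shp53 cocultures held its lowest and its highest value. The average difference was 0.11 ± 0.18 (SE), and the interval, -0.33 to 0.55, was the widest of the 10.

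For 6 of the 10 genes the RefSeq promoter table (GRCm38.p6) held 8 windows of 300 bases, from 250 bases before to 50 after a transcript start. Those of Cubn, Amn, Lrp2 and Dab2, the endocytic genes with their highest signals in the shp53 cocultures, and of Hnf4a are shown, since GATA, SOX and HNF4 factors are themselves in the list. Capitals mark the GATA motif AGATAA or its reverse complement TTATCT; the sequences run 5′ to 3′ on the strand of the gene. For Dab2 and Hnf4a the first of 2 annotated starts in the table is printed.
Cubn (chr2:13491827-13492126, minus strand): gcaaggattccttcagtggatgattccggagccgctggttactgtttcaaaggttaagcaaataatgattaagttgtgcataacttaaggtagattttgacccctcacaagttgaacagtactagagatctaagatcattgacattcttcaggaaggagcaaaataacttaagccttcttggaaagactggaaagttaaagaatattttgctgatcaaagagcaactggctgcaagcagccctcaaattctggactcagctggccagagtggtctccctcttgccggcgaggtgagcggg
Amn (chr12:111270846-111271145, plus strand): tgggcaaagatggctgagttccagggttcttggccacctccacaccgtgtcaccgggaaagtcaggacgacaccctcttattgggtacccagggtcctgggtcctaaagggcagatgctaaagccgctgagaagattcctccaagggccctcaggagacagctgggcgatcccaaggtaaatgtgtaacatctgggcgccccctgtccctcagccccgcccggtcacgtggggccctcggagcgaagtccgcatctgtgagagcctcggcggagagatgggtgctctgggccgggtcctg
Lrp2 (chr2:69585980-69586279, minus strand): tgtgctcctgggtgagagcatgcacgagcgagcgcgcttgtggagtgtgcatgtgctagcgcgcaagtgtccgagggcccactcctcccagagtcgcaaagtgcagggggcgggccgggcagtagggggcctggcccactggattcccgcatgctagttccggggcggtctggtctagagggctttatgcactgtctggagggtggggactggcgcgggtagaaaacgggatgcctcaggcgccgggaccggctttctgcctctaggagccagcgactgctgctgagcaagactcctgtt
Dab2 (chr15:6299539-6299838, plus strand): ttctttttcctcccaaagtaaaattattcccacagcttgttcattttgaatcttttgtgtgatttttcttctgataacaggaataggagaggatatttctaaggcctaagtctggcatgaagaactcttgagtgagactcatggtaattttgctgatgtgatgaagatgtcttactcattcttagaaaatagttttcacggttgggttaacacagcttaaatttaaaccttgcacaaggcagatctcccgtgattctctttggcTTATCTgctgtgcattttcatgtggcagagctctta
Hnf4a (chr2:163506607-163506906, plus strand): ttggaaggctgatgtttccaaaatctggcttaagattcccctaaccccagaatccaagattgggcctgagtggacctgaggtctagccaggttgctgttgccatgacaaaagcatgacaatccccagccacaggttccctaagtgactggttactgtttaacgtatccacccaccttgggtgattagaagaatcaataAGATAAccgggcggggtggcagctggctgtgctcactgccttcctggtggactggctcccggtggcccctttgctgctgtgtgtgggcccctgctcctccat
The GATA letters stood in 2 of the 8 windows, the printed ones of Dab2 and Hnf4a, and in 11.2% of 32851 promoter windows in the table. The SOX motif AACAAT (reverse ATTGTT) and the HNF4 motif CAAAGTCCA (reverse TGGACTTTG), searched on both strands, were in none of the 8, against 10.7% and 0.475% of all windows. The motifs do not overlap each other here. GC content ran from 37.7% in the printed Dab2 window to 65% in that of Lrp2, with a median of 52.7% over all windows.

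Cubn encodes cubilin, the large cargo-binding protein of the cubilin-amnionless receptor. Its signals were 4498 and 3861 in the shTop1 mixes, 3779 and 4246 in the shTop1 cocultures, 4232 and 4000 in the shp53 mixes, and 5244 and 4780 in the shp53 cocultures. The 3 other groups overlapped, and both shp53 cocultures lay above them. Against the shp53 mixes the difference was 0.28 ± 0.13 (SE), a ratio of 1.22, with an interval of -0.03 to 0.59 (limma adjusted p = 0.743), the largest of the 10 in that comparison. With shTop1 it was -0.06 ± 0.13 (SE).

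Amn encodes amnionless, the membrane subunit that carries cubilin to the cell surface. It had signals of 2568 and 2628 in the shTop1 mixes, 2603 and 2916 in the shTop1 cocultures, 2569 and 2817 in the shp53 mixes, and 3211 and 3125 in the shp53 cocultures. The order was that of Cubn, with overlap among the first 3 groups. The shp53 difference was 0.23 ± 0.11 (SE), with an interval of -0.03 to 0.50.

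Lrp2 encodes megalin, the partner receptor. Its signals were 1712 and 1710 in the shTop1 mixes, 1537 and 1477 in the shTop1 cocultures, 1733 and 1680 in the shp53 mixes, and 1887 and 1802 in the shp53 cocultures. The 4 mixes lay close together, the shTop1 cocultures below all of them and the shp53 cocultures above all of them. The differences were -0.18 ± 0.09 (SE) with shTop1 and 0.11 ± 0.09 (SE) with shp53. The shTop1 effect minus the shp53 effect was -0.29, with an interval of -0.61 to 0.02 (limma adjusted p = 1). Lrp2 was the only member with cocultures on opposite sides of their mixes in the 2 knockdowns, as 3.55% of all genes were.

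Dab2, the clathrin adaptor, had signals of 5187 and 5067 in the shTop1 mixes, 5087 and 5199 in the shTop1 cocultures, 4973 and 5048 in the shp53 mixes, and 5698 and 5585 in the shp53 cocultures. The first 6 arrays lay within a narrow band and the last 2 above it. The shp53 difference was 0.17 ± 0.09 (SE), a ratio of 1.13, with an interval of -0.05 to 0.39. The shTop1 difference was 0.004 ± 0.09 (SE). None of the other Dab2 probe sets had both shp53 cocultures above the other 6 arrays. For 1430604_a_at (308 and 311) and 1423805_at (687 and 757) both shp53 cocultures lay above their mixes, but shTop1 mix replicate 1 had 325 and 724.5. For 1429693_at the shp53 cocultures overlapped their mixes.

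Pdgfra, the receptor tyrosine kinase for PDGF that marks early primitive endoderm cells, had signals of 1250 and 1147 in the shTop1 mixes, 1268 and 1125 in the shTop1 cocultures, 1254 and 1289 in the shp53 mixes, and 1446 and 1543 in the shp53 cocultures. The shTop1 cocultures overlapped both groups of mixes, the shp53 mixes lay just above the shTop1 mixes, and the shp53 cocultures lay above all. The shp53 difference was 0.23 ± 0.11 (SE), with an interval of -0.04 to 0.50, and the shTop1 difference was -0.004 ± 0.11 (SE). Fibroblasts and mesoderm also express Pdgfra. The summed signal of the 9 fibroblast markers was 396 to 495 in the shp53 cocultures and 412 to 460 in the shTop1 cocultures, against 381 to 391 and 334 to 346 in their mixes. This sum, with only 4 of the 9 markers above the filter, was thus higher in the cocultures of both knockdowns. Acta2, a fibroblast gene outside the sum, ran the other way with both knockdowns. With shp53 it had 335 and 380 in the mixes, and 275 and 237 in the cocultures. With shTop1 it had 266 and 281.5 in the mixes, and 245.1 and 233.5 in the cocultures. Of the 7 tested genes of the longer fibroblast list, 5 were above 0 with shp53. The part of fibroblasts in the Pdgfra values was not tested.

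Set against their mixes, the shp53 cocultures were above both mix arrays for 7 of the 10 genes (the 5 named, Gata6 and Sox17), and below for 0. Over all genes 20.9% were above and 17.1% below. The median difference was 0.14, with 9 of 10 above 0, beside a median of 0.01 and 53% above 0 over all 14267 genes. With shTop1 the cocultures were above for 2 (Gata6 and Hnf4a) and below for 1 (Lrp2), against 24.5% and 16.9% of all genes. There the median was 0.01, with 6 of 10 above 0, beside 0.03 and 55.6% over all genes. No gene of the 10 reached an unadjusted limma p under 0.05 in either comparison, where 3.87% of all genes were higher and 2.99% lower in shp53 coculture, and 5.12% higher and 3.08% lower in shTop1 coculture.

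**Figure D2:**
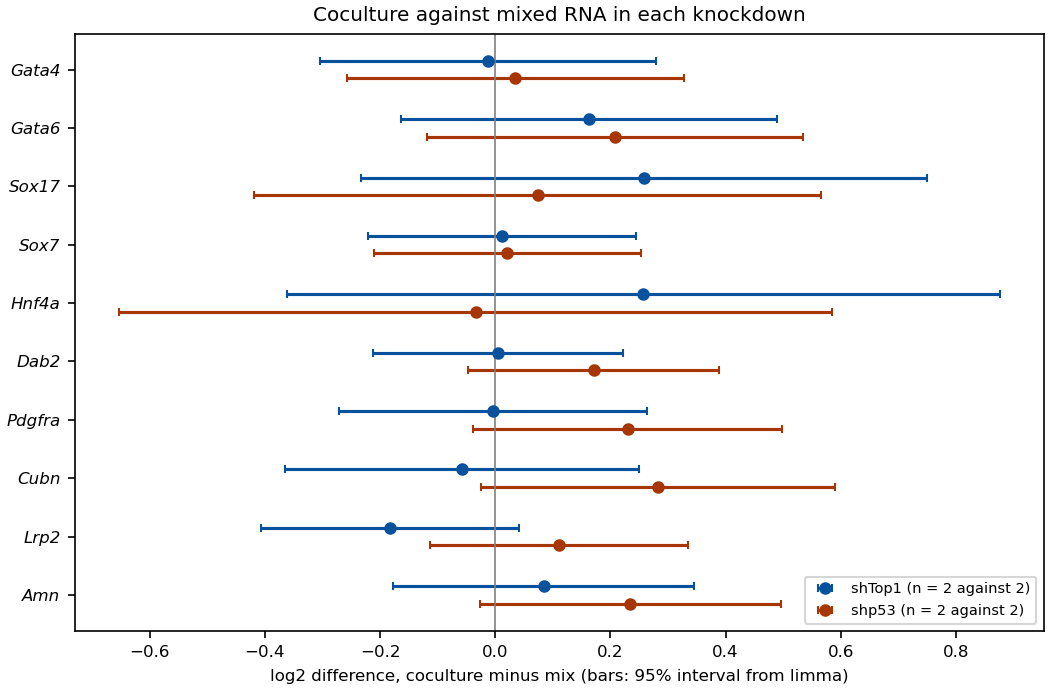
Difference of coculture minus mix on the log2(signal + 16) scale for the 10 genes in each knockdown, with 95% intervals from limma (2 arrays against 2). Every interval includes 0; for Dab2, Pdgfra, Cubn, Lrp2 and Amn the shp53 point lies to the right of the shTop1 point.

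Averaged over both knockdowns, the median difference was 0.11 with 9 of 10 genes above 0, beside 0.02 and 55.3% over all genes. For 0 of the 10 did the 4 cocultures lie outside the 4 mixes, against 5.75% of all genes above and 3.35% below. No member had an unadjusted limma p under 0.05 here, where 7.09% of all genes were higher and 4.63% lower. The smallest adjusted p of a member was 0.467, that of Amn (0.16 ± 0.08, SE). With each gene's probe sets averaged in place of the brightest, the median of the 10 genes was -0.01 with 5 above 0, so this average lean depends on which probe set stands for the gene.

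The difference of the 2 coculture effects, shTop1 minus shp53, was above 0 for 2 of the 10 genes (51.5% of all genes) and below 0 for all 5 receptor and adaptor genes, from -0.34 (Cubn) to -0.15 (Amn). None passed (limma adjusted p = 1 for the smallest), and 0 of the 10 had an unadjusted p under 0.05, where 2.63% of all genes were higher and 1.68% lower. The cocultures were then compared with each other directly, which uses the same coculture arrays and is no independent view. In this direct comparison 2 of the 10 differences were above 0 (50.9% of all genes). The arrays did not overlap for 6 genes lower in shTop1 (13.4% of all genes) and 0 higher (14.3%). Lrp2 (-0.29 ± 0.09, SE), Pdgfra (-0.32 ± 0.11) and Cubn (-0.32 ± 0.13) were lower in shTop1 than in shp53 coculture at unadjusted limma p of 0.0197, 0.0266 and 0.0433, and their adjusted p ran from 0.932 to 1. These are 3 of 10 genes, against 2.17% of all genes lower and 2.61% higher at that level. The count of 3 fell to 0 with median centring, with probe sets averaged and in a fit of only the 4 coculture arrays. It was 2 with a replicate block, with the deposited scaling, without the filter or without shp53 coculture replicate 2, and 1 without shTop1 coculture replicate 2 or shp53 coculture replicate 1. Between the mixes, where the cells had not met, the 10 genes differed between the knockdowns by -0.09 (Pdgfra) to 0.08 (Sox17), with a median of -0.02. Of these differences 4 were above 0 (47.6% of all genes), and the arrays did not overlap for 1 gene higher and 1 lower in shTop1 (15.1% and 18.3% of all genes). None of the 10 had an unadjusted p under 0.05 there, and 1.84% and 2.2% of all genes were higher and lower.

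The array shp53 coculture replicate 1 was the highest of the 8 for 6 of the 10 genes, and shp53 coculture replicate 2 for 2 (Hnf4a and Pdgfra). Over all genes these arrays were the highest for 12.4% and 14.5%. The median deviation of the 10 genes from their own mean was 0.165 on the first and 0.095 on the other, and between -0.06 and 0 on the remaining 6 arrays. In the same 2 arrays the summed signal of 5 stem cell markers (Pou5f1, Nanog, Sox2, Zfp42 and Esrrb) was 42900 to 45640, below the 46770 to 50770 of the other 6. Sox2 had 11100 and 10050 there, and Zfp42 8952 and 10340, but the array shTop1 coculture replicate 2 was as low (10110 and 9989). Pou5f1 (12330 and 13250) and Esrrb (2727 and 2628) overlapped the mixes, and Nanog (7787 and 9374) had a difference of 0.20 from the shp53 mixes. The summed signal of 5 visceral endoderm markers (Ttr, Apoa1, Apob, Foxa2 and Afp, the last below the filter) was 544 to 680.1 in the shp53 cocultures and 434 to 542 on the other 6 arrays. Foxa2 made up most of it (395 and 423), and for Foxa2 shp53 mix replicate 1 (404.5) lay between them. Of the 13 tested genes of the longer visceral endoderm list, 1 had both shp53 cocultures above the other 6 arrays. That of 5 trophectoderm markers (Cdx2, Krt7, Hand1, and Elf5 and Gata3 below the filter) was 227 to 234 against 125 to 218. That of 5 parietal endoderm markers, which Sparc and Lama1 dominate, was 29660 to 32400 against 25760 to 30410. Of these 5, Fst and Thbd were lower than in the shp53 mixes (-0.41 and -0.16). Both shp53 cocultures lay above the other 6 arrays for 2 of the 9 tested trophectoderm genes. In the longer parietal endoderm list, which leaves out Sparc and Lama1, this held for 0 of 12. The same order was found for 4 of 13 basement membrane genes and 3 of 12 tested partners of the endocytic receptors, lists described below. It held for 0 of 16 tested FGF-ERK genes and 0 of 19 epiblast factors. The order was thus not particular to the 10 genes. The part of these shifts in the values of the 10 genes was not tested.

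Probe sets of 1 gene did not always move alike. Of the 25 member probe sets above the filter, 6 had both shp53 cocultures above the other 6 arrays and 1 had both below, against 3.64% and 3.49% of all 26118 probe sets. The 6 were the 5 brightest ones named and the other Cubn probe set, 1426990_at, with 2155 and 1920 against 1563 to 1828 elsewhere. The 1 below was Pdgfra 1438946_at, with signals of 261 and 257.5 in the shTop1 mixes, 233 and 267 in the shTop1 cocultures, 197 and 245 in the shp53 mixes, and 174 and 192 in the shp53 cocultures. It therefore ran opposite to the brighter Pdgfra probe set. Of 6673 genes with several tested probe sets, 0.584% had such a pair.

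Gata6 showed a similar split. Its second probe set, 1425463_at, had 446 and 460.2 in the shTop1 mixes, 399 and 385 in the shTop1 cocultures, 417 and 529 in the shp53 mixes, and 422 and 369.5 in the shp53 cocultures. The average difference was -0.22, against 0.19 for the brighter one (limma adjusted p = 0.512 and 0.551 over probe sets). The third, 1443081_at, was below the filter. The second bright Lrp2 probe set, 1427133_s_at, had differences of -0.14 with shTop1 and 0.13 with shp53, the same signs as the first. Its shTop1 cocultures overlapped their mixes, however. Its shp53 cocultures (1826 and 1655) did not both exceed the other arrays, as shTop1 mix replicate 2 had 1693. The third and dimmest, 1445901_at, had -0.15 with shTop1 and -0.70 with shp53, with 45.5 and 57.4 in the shp53 mixes and 35 and 17.5 in the shp53 cocultures, opposite to the first with shp53.

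**Figure D3:**
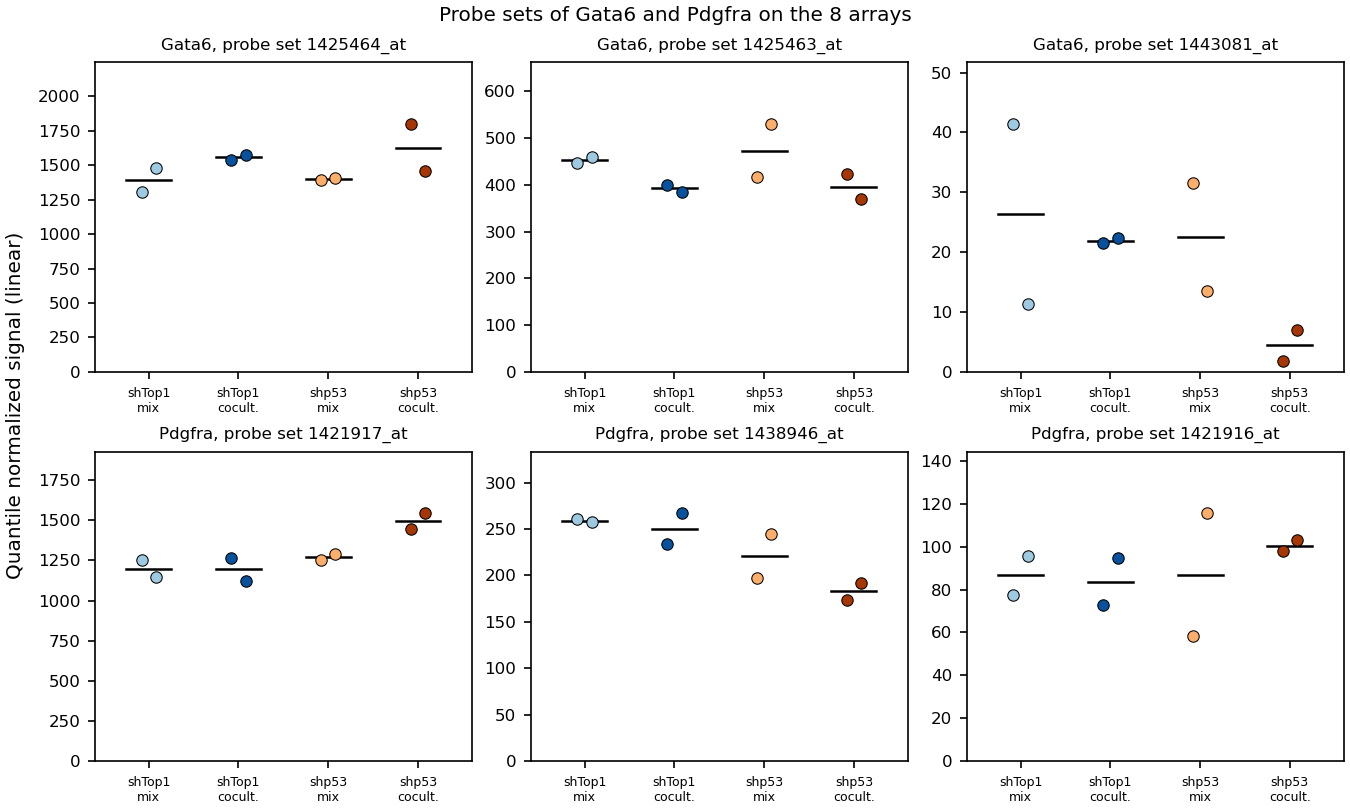
Quantile normalized signal (linear axis from 0) of the 3 probe sets each of Gata6 and Pdgfra on the 8 arrays; points are arrays, lines are means of 2. The 2 brighter probe sets of each gene run in opposite directions in the shp53 cocultures, and the dimmest of Gata6 lies near the low end of the scale.

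Related genes were taken from lists drawn up with the members. None of the genes tested in the lists below passed over all genes, in any of the 3 coculture comparisons. The basement membrane that primitive endoderm cells lay down is made of laminin, collagen IV and nidogen. All 13 listed genes were above 0 in the average comparison, with a median of 0.11 and a range of 0.07 to 0.35. The collagen prolyl hydroxylase P4ha1 (0.35 ± 0.11, SE, limma adjusted p = 0.368) and Hspg2, which encodes perlecan (0.23 ± 0.09), had the smallest p. P4ha1 had signals of 2027 and 2183 in the shTop1 mixes, 2591 and 2923 in the shTop1 cocultures, 2445 and 1985 in the shp53 mixes, and 3032 and 2482 in the shp53 cocultures. All cocultures of P4ha1 lay above all mixes. For 3 of the 13 genes this was so, beside the 5.75% of all genes. With shTop1 these 13 genes had a median of 0.09 and with shp53 of 0.14, and 13 were above 0 in each.

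Partners of the endocytic receptors, such as clathrin, the AP2 adaptor and the chaperone Lrpap1, were above 0 for 10 of 12 tested genes (median 0.08). Ap2a1, a subunit of the AP2 adaptor, had the smallest p (0.33 ± 0.08, SE, limma adjusted p = 0.344), with signals of 330 to 386 in the mixes and 437 to 469 in the cocultures. Tcn2, the vitamin B12 carrier, followed (0.23 ± 0.07). PDGF ligands, the other PDGF receptor Pdgfrb and the receptor-like Pdgfrl had a median of 0.18 over 5 tested genes. This median was 0.235 with shTop1 and -0.028 with shp53. Averaged over both knockdowns, Pdgfb had 0.25 ± 0.13 (SE) and Pdgfc -0.19 ± 0.10 (SE).

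For the visceral endoderm and its regulators, 8 of 13 tested genes were above 0 (20 listed) and the median was 0.10. Afp, a product of the mature visceral endoderm, was below the filter. Rbp4, the retinol carrier, had 0.29 ± 0.12 (SE), and Otx2, a homeobox factor also of the epiblast, -0.23 ± 0.09 (SE). Among parietal endoderm genes 5 of 12 were above 0, and the median was -0.01. Gata2, a GATA factor not in the member list, had the smallest p of these: 159 and 151 in the shTop1 mixes, 253 and 263 in the shTop1 cocultures, 199 and 188 in the shp53 mixes, and 233 and 259 in the shp53 cocultures. All cocultures lay above all mixes, with a difference of 0.50 ± 0.07 (SE, limma adjusted p = 0.282). Krt19, a keratin, had 0.35 ± 0.12 (SE).

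Components and targets of FGF-ERK signalling lay mostly below 0: 2 of 16 tested genes were above it, and the median was -0.27. The 2 above 0 were the ligand Fgf4 (0.21 ± 0.08, SE) and the kinase Map2k1 (0.14). The receptor Fgfr2 had -0.28, the adaptor Grb2 -0.14, the exchange factor Sos1 -0.35 and the feedback inhibitor Spred1 -0.36 ± 0.09 (SE, limma adjusted p = 0.345). Fgf5 had the smallest p of the list (-1.004 ± 0.13, SE, limma adjusted p = 0.279). This average joins unlike values, -1.62 with shTop1 and -0.39 with shp53. The shTop1 cocultures of Fgf5 (22.6 and 26.1) were near the filter of 22.1. For 6 of the 16 the cocultures lay below all mixes, beside the 3.35% of all genes. Of the epiblast factors 9 of 19 were above 0 (median -0.05). Zfp42 (-0.28 ± 0.10, SE) and Fgf4 had the smallest p. Definitive endoderm genes had a median of 0.001 over 5 tested, with Cxcr4 at -0.52 ± 0.25 (SE) near the filter and Foxa2 at 0.27 ± 0.13 (SE). Trophectoderm genes had 0.14 over 9 tested, with Krt8 at 0.14 ± 0.07 and Krt18 at 0.15 ± 0.08 (SE). Fibroblast genes had 0.14 over 7 tested, with Thy1 at 0.35 ± 0.09 and Acta2 at -0.32 ± 0.09 (SE).

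**Figure D4:**
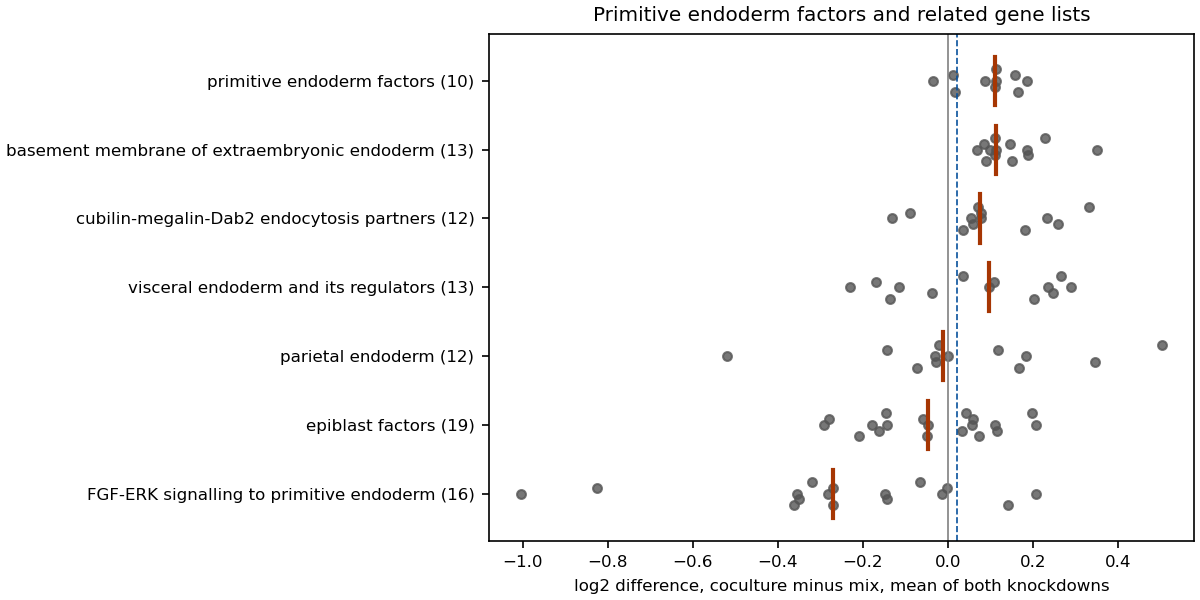
Difference of coculture minus mix, averaged over both knockdowns, on the log2(signal + 16) scale for the tested genes of 7 lists (number tested in parentheses). Grey points are genes, the thick bar is the median of the list and the dashed line the median of all genes (0.02). The primitive endoderm factors (median 0.11) and the basement membrane genes (0.11) lie mostly to the right of the line and the FGF-ERK genes (-0.27) to the left.

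The 3 genes whose signals followed the average standardized profile of the 10 most closely over the 8 arrays were Anxa3 (Pearson r = 0.971), Lama1 (0.961) and Eftud2 (0.951), out of 14257 ranked. They were picked for this likeness, so the r values are a description. Lama1, which encodes a laminin chain of the basement membrane, had signals of 10250 and 10230 in the shTop1 mixes, 10300 and 11270 in the shTop1 cocultures, 9741 and 10870 in the shp53 mixes, and 12820 and 11400 in the shp53 cocultures. Both shp53 cocultures of Lama1 lay above the other 6 arrays, an order that the choice by likeness favours, so it adds nothing to r.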

How the data were processed

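Expression was measured on 8 arrays of stem cell RNA in 4 groups of 2. The deposited values are linear signal intensities, scaled by the authors to a trimmed mean of about 500.003 per array with 2% left out at each end, as read from the values (software: not given in the sources used here). Of 45101 probe sets, 34958 had 1 symbol, 932 several and 9211 were not listed in the platform annotation; symbols were updated through gene identifiers. Quantile normalization was followed by log2(intensity + 16). The probe set with the highest mean stood for its gene, and genes at or above the 30th percentile of all probe sets were tested (14267). One model with a mean per group covered the 8 arrays (limma 3.58.1 in R 4.3.3, 4 residual degrees of freedom), and two-sided p-values were adjusted by Benjamini-Hochberg over all genes at 0.05. The number of arrays limits the precision.

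Members, lists and the rule for named genes (the members, 2 genes per list with the smallest p, 3 most alike genes, 3 stem cell markers) were chosen with earlier results of these data known. Other genes named, among them Fgfr2, Grb2, Sos1 and Map2k1, were picked after their values were seen. On simulated data of 14267 genes in the average coculture comparison, a log2 change of 0.25 was recovered for 0% of genes, 14% at 0.5, 54% at 1 and 78% at 2, with 5 false calls. With 1 knockdown it recovered 0% at 0.25 in both, and 0% (shTop1) and 2% (shp53) at 0.5. At each size 50 genes were changed, and rates for the members alone were not worked out. The SE of the members in the average comparison ran from 0.063 (Dab2) to 0.18 (Hnf4a). The simulated rates are therefore no detection limit for the members. Same-numbered replicates did not deviate together (r -0.007 to 0.05 between groups), so they were not paired. Alternatives were a replicate block, 2 other scalings, no filter and the 50th percentile, the mean of probe sets, every probe set, variances fitted with a trend and robustly, a fit of only the arrays compared, other pseudocounts (1 and 64), and leaving out each array.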

Additional observations from a re-analysis of the deposited data

Results flagged for a closer look

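Lrp2 had coculture arrays on opposite sides of their mixes in the 2 knockdowns: both shTop1 cocultures lay below their mixes (-0.18) and both shp53 cocultures above theirs (0.11). The difference of the effects was -0.29 (limma adjusted p = 1 over 14267 genes), so it did not pass. Its second bright probe set, 1427133_s_at, had a difference of -0.28 between the effects, and the dim 1445901_at had 0.55. For 1427133_s_at the shTop1 cocultures (1626 and 1322) overlapped their mixes (1553 and 1693), so this probe set did not show the opposite sides. Of all genes, 507 (3.55%) showed cocultures on opposite sides. Groups of 2 arrays are too small for a check of single outlying arrays.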

How the results depend on the processing

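In every setting and comparison run (96 beside the reported ones) 0 of the 10 genes passed, with a smallest adjusted p of 0.275 (limma). Trended and robust variances called 31 genes of 14267 in the average comparison, 3 with shTop1 and 1 with shp53, in place of 0, and 0 of these were among the 10; at an unadjusted p under 0.05 that setting had 2 of the 10 higher in the average comparison (8.45% of all genes higher), 3 higher with shp53 (4.39%), 2 lower for the difference of the effects (1.19%) and 3 lower between the cocultures (1.92%). With a replicate block the medians of the 10 stayed at 0.11 on average, 0.01 with shTop1 and 0.14 with shp53, and the smallest adjusted p was 0.471, 0.655 and 0.718; no adjusted call changed. With median centring, the median of the 10 was 0.16 on average, 0.066 with shTop1, 0.205 with shp53, 0.060 between the mixes and -0.050 between the cocultures. With probe sets averaged by gene it was -0.006 on average, 0.091 with shp53, -0.056 for the difference of the effects and -0.040 between the cocultures. With every probe set by itself it was 0.028, 0.111 with shp53 and -0.083 between the cocultures. Leaving out each array, the median ranged from 0.075 to 0.117 on average, -0.004 to 0.044 with shTop1, 0.117 to 0.175 with shp53, -0.180 to -0.049 for the difference, -0.014 to 0.001 between the mixes and -0.210 to -0.081 between the cocultures.

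The count of genes with both shp53 cocultures above the other 6 arrays, 5 as reported, was 3 with median centring (Pdgfra, Cubn and Lrp2; 2.43% of all genes) and 5 with the deposited scaling alone (3.88%). Leaving out arrays in turn it was 5 to 7, with fewer arrays to exceed: 7 without shp53 coculture replicate 2 (14.4% of all genes), 6 without shp53 coculture replicate 1 (16.5%), and 5 without any of the other 6 (4.51% to 9.25%). These 3 checks were chosen after the data were seen.

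Of 960 values of single genes under alternatives, 77 changed sign, 70 of them from values within 1 SE of 0, which have no settled direction. The other 7 were Gata6 with the mean of its probe sets (-0.17 on average, -0.034 with shTop1, -0.31 with shp53) and Lrp2 likewise with shp53 (-0.15), where dim probe sets weigh like bright ones. Without shTop1 coculture replicate 2, Sox17 had -0.044 with shTop1 and -0.038 between the cocultures, and without replicate 1 of that group 0.561 and 0.567. Without shp53 coculture replicate 1, Hnf4a had -0.084 between the cocultures, and without replicate 2 of that group 0.609.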
